A study of Mus musculus with 4 samples.

Results

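The genes described here are the mouse matrix metalloproteinases (MMPs), the ADAM and ADAMTS metalloproteinases with the ADAMTS-like proteins, and their inhibitors, the TIMPs and RECK. They were picked by gene name, every symbol that starts with Mmp, Adam, Adamts, Adamtsl or Timp and a number, plus Reck, which gave 85 of the 56350 genes in the counts table: 23 Mmp, 33 Adam, 24 Adamts or Adamtsl, and 5 Timp or Reck genes. No count enters that rule, but the family was picked for description with its differences between the groups already known, so its counts below describe these libraries and support nothing further. Total RNA was sequenced from EO771 cells, a mammary carcinoma line of C57BL/6 mice, in 4 libraries. Replicates 1 and 2 labelled untreated, which the treatment protocol calls vehicle control, were compared with replicates 1 and 2 labelled BML-210, kept with that compound at 1.0 µM for 48 h. BML-210 is an inhibitor of histone deacetylases. The untreated samples are titled WT. Every direction rests on those labels: the library codes beside them are D for untreated and V for BML-210, and if V stood for vehicle instead, every direction would turn. The labels give no separate culture for each replicate, so p-values measure the spread between these samples, which may be technical.

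MMPs cut collagens, gelatin and many other proteins outside the cell and are made as inactive precursors. ADAMs sit in the cell membrane and release the outer parts of other membrane proteins, a process called shedding, while ADAMTS enzymes are secreted and cut proteoglycans and procollagens. TIMPs bind the active site of MMPs and of some ADAMs, and RECK is a membrane-anchored MMP inhibitor. In mammary tumours these enzymes are known for remodelling the matrix and for releasing growth factors.

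Library totals ran from 13167893 to 16534667 counts. Of 12 mammary epithelial markers 6 had enough counts to be tested, with 0 higher and 4 lower, and their summed level was 102 and 110.5 CPM (counts scaled to a common library size) in the untreated libraries and 71.0 and 71.3 CPM in the BML-210 libraries. Krt8 was among those detected (means of 46.4 and 30.7 CPM), whereas Krt18 had at most 2 counts and Epcam at most 3 in any library, so those 2 markers were at or near 0 in a line labelled as mammary. Without Krt8 the list still summed to 58.7 and 61.3 CPM untreated and 42.7 and 38.2 CPM with BML-210, so other markers of it were detected. Markers of other cells were summed in the same way. Beside all these marker counts, 22.9% of all tested genes were higher and 23.5% lower (edgeR adjusted p under 0.05). Of 12 fibroblast markers 5 were tested, 3 higher and 1 lower (251 and 259.9 CPM against 246 and 247 CPM, with Lum, Thy1 and Tcf21 at 0). Without Pdgfra, its most abundant gene, that sum was 96.2 and 102.7 CPM untreated and 151 and 146 CPM with BML-210. Of 10 endothelial markers 4 were tested, 0 higher and 1 lower (10.7 and 10.1 CPM against 10.6 and 9.99 CPM, with Emcn and Sox17 at 0). Of 11 lymphocyte markers 1 was tested and was higher (2.98 and 2.33 CPM against 4.62 and 4.35 CPM, with Nkg7 at 0).

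The 5 promoter windows printed here set members of a nearly silent gene cluster beside ADAM genes that fell with BML-210. Each is the 250 bases before the RefSeq transcription start (GRCm38.p6, the assembly of mm10), 5′ to 3′ on the strand of the gene. Capitals mark matches to an AP-1 site (TGANTCA), a GC box (GGGCGG) or a TATA box (TATAAA), each searched on both strands. Mmp3 (chr9:7445572-7445821, plus strand) and Mmp13 (chr9:7272264-7272513, plus strand) stand for the cluster of MMP genes on chromosome 9. Adam8 (chr7:139992563-139992812, minus strand) had the largest fall among the tested members. Adam10 (chr9:70678732-70678981, plus strand) and Adam17 (chr12:21373633-21373882, minus strand) are the main sheddases.
Mmp3: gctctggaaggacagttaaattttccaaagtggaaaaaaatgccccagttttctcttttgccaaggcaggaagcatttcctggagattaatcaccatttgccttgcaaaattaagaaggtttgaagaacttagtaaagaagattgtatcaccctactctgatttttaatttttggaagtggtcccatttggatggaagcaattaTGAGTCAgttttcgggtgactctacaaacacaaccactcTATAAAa
Mmp13: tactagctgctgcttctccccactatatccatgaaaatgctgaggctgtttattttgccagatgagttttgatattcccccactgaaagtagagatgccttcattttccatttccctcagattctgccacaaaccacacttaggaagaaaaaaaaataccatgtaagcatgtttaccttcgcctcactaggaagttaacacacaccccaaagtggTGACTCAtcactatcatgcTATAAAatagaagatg
Adam8: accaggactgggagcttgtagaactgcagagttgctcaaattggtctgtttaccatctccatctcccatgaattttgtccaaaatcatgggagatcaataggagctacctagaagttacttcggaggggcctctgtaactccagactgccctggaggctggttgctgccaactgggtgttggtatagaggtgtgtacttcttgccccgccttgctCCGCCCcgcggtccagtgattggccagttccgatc
Adam10: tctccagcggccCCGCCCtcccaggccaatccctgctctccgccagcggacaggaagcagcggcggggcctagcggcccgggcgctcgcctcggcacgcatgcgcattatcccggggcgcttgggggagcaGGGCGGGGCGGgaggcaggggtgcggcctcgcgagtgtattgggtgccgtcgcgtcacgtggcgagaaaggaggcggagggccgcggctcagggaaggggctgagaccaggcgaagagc
Adam17: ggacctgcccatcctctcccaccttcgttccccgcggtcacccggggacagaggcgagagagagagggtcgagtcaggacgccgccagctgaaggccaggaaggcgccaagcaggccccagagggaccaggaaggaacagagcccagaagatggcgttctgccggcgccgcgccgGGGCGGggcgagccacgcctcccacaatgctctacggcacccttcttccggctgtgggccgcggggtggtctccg

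Mmp3 and Mmp13 each held an AP-1 match and a TATA match and no GC box, and the Adam windows held GC boxes alone, those of Adam10 partly overlapping each other. RefSeq entries were found for 54 of the 85 members, of which 4 start over 1000 bases from the gene start in the counts table. Among tested members without an entry were Mmp9, Mmp2 and Mmp19, which rose with BML-210, and Adam9, Adamts4 and Adamts6, which fell. A GC box stood in 17 of the 20 matched members that had enough counts to be tested and in 8 of the 34 that had not. It stood in 32.7% of 32851 promoter windows of the same length, taken whether or not their genes had counts here. An AP-1 match stood in 1 of those 20 and in 10 of those 34 (6.75% of all windows), and a TATA match in 2 and in 11 (12.4%). The AP-1 letters allow any middle base, and the matches of Mmp20, Adam20 and Adam25 read TGAATCA. The 10 MMP genes of the chromosome 9 cluster (7272514 to 7699585, mm10) held an AP-1 and a TATA match in 7 windows and a GC box in 0. These 10 genes were also nearly silent: 4 had no count in any library, Mmp3 had at most 17 counts and the others at most 8. A match describes the letters only, and the windows differ in base composition.

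Of the 85 members 32 passed the filter on low counts, 43 had some counts but too few and 10 had none in any library (Mmp7, Mmp8, Mmp20, Mmp27, Adam6b, Adam20, Adam25, Adam26a, Adam26b and Adam39). A gene could pass through the group in which it is high, so the 32 are not a neutral sample of the family. edgeR's quasi-likelihood test with Benjamini-Hochberg adjustment over all 14455 tested genes called 20 of the 32 at an adjusted p under 0.05, 5 higher and 15 lower with BML-210. Over all tested genes the same rule called 46.4%, with 22.9% higher and 23.5% lower. The members' median log2 fold change was -0.13, and that of all tested genes was 0.00. Both BML-210 libraries lay above both untreated ones for 9 members and below them for 18, while 71.3% of all tested genes had groups that did not overlap. A change of at least 2-fold was called in 4 members (Mmp9, Adam8, Adamts6 and Adamts8) and in 6.68% of all tested genes. By role, the 2 gelatinase genes rose, all 5 tested catalytic ADAMs of somatic tissues fell, 8 of 10 tested ADAMTS enzymes fell, and of the inhibitors Timp2 alone passed the test, upward. DESeq2 called 12 of the 32 members, all of them among the 20. Over all 14455 tested genes it called 4335, with 2205 higher and 2130 lower.

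**Figure D1:**
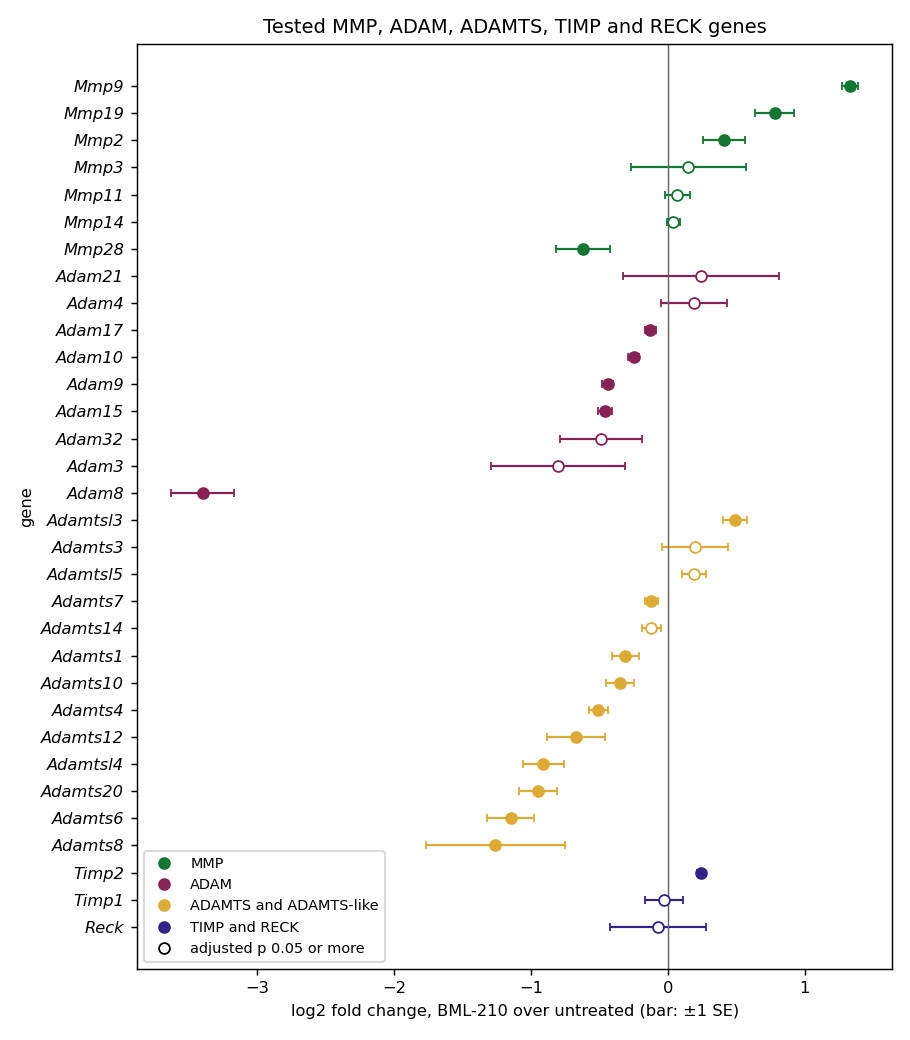
Log2 fold change of the 32 tested members, BML-210 over untreated, with bars of ±1 SE, by family; filled points have an edgeR adjusted p under 0.05. Mmp9 lies farthest right at 1.33 and Adam8 farthest left at -3.40, and most filled ADAM and ADAMTS points lie left of 0.

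Among the MMPs the gelatinase gene Mmp9 changed most. Mmp9 (ENSMUSG00000017737.2, chromosome 2, 164940780 to 164955850, mm10) encodes gelatinase B, which degrades gelatin and collagen IV. Its level was 48.3 and 43.4 CPM in the untreated libraries and 117 and 114 CPM in the BML-210 libraries. Both BML-210 libraries were far above both untreated ones, a 2.51-fold rise (log2 fold change 1.33 ± 0.06 SE, n = 2 per group, edgeR adjusted p = 1.06e-28). The other gelatinase gene, Mmp2 (ENSMUSG00000031740.8, chromosome 8, 92827291 to 92853420), had 8.16 and 7.72 CPM untreated and 11.9 and 9.35 CPM with BML-210. The groups did not overlap, and the rise of 0.41 ± 0.15 (SE) on the log2 scale passed the test (edgeR adjusted p = 0.0221). That call ended without untreated replicate 2 (adjusted p = 0.0770), without BML-210 replicate 1 (0.368, at a log2 fold change of 0.23) and in DESeq2 (0.172), with a range of 0.00562 to 0.368 over 13 alternatives.

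Mmp19 (ENSMUSG00000025355.7, chromosome 10, 128790910 to 128800824), a secreted MMP that cuts basement membrane proteins, had 6.999 and 8.52 CPM untreated and 12.9 and 13.6 CPM with BML-210. It rose by 0.78 ± 0.14 (SE) on the log2 scale (edgeR adjusted p = 7.25e-06). Its exons share 789 bases with those of Tmem198b on the opposite strand, which had 1137 counts in all against 593 for Mmp19 and its own log2 fold change at -0.01. No source used here says to which gene the shared reads went. Mmp28 (epilysin; ENSMUSG00000020682.17, chromosome 11, 83440768 to 83463071) went the other way, from 7.55 and 5.75 CPM to 4.47 and 4.28 CPM. This fall (log2 fold change -0.62 ± 0.20 SE, edgeR adjusted p = 0.00754) leaned on untreated replicate 1, without which it was -0.40 (adjusted p = 0.201), and it did not pass in DESeq2 either (0.116, with a range of 0.00123 to 0.201 over 13 alternatives).

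Mmp14 encodes the membrane-anchored collagenase MT1-MMP, which activates the precursor of MMP2. It had 96.3 and 93.5 CPM untreated and 97.2 and 98.0 CPM with BML-210, which left a difference of 0.04 ± 0.05 (SE) on the log2 scale that did not pass (edgeR adjusted p = 0.546). Mmp11 (stromelysin 3) had 26.2 and 28.3 CPM against 28.8 and 28.3 CPM, and its difference of 0.07 ± 0.09 (SE) on the log2 scale did not pass either. Mmp3, the stromelysin of the chromosome 9 cluster, stayed near 1 CPM in every library (0.999 to 1.29). The other 5 membrane-type MMP genes had at most 11 counts in a library and the 4 collagenase genes at most 8, so no difference in them was detectable at this depth.

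TIMP genes were dominated by Timp2, which encodes the inhibitor that also takes part in the activation of MMP2 by MT1-MMP. Timp2 (ENSMUSG00000017466.9, chromosome 11, 118301069 to 118355740) had 283 and 281 CPM untreated and 334 and 332 CPM with BML-210. The libraries of each group lay close together (SD of 1.51 and 0.899 CPM), and the rise was small (log2 fold change 0.24 ± 0.03 SE, edgeR adjusted p = 7.83e-09). Timp1 had 11.2 and 9.47 CPM against 10.6 and 9.70 CPM, overlapping groups with a log2 fold change of -0.03 ± 0.14 (SE). Reck was at 1.36 to 1.83 CPM in all 4 libraries and its groups overlapped too. Timp3, the TIMP that binds the matrix and inhibits ADAM17, had 3 and 2 counts untreated and 0 and 0 with BML-210. Timp4 had 15, 8, 1 and 1 counts in the same order and was not tested at these counts.

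Sums over a family need a scale per length, so CPM were divided by the exonic length in kilobases. On this scale all MMP genes together gave 46.8 and 45.7 CPM per kilobase untreated and 69.2 and 67.8 with BML-210. Without Mmp9 the sums were 33.2 and 33.4 against 36.0 and 35.7, so most of the difference lay in that gene. Mmp9 made up 29.1% and 26.9% of the MMP sum in the untreated libraries and 47.9% and 47.4% in the BML-210 libraries. The TIMP sum was 85.4 and 82.9 CPM per kilobase untreated and 97.6 and 96.2 with BML-210, of which Timp2 supplied 85.0% to 88.6%. Set against each other within a library, which needs no scaling between libraries, the ratio of MMP to TIMP levels was 0.548 and 0.551 untreated and 0.709 and 0.705 with BML-210. Without Mmp9 it ran the other way, at 0.389 and 0.403 untreated and 0.369 and 0.371 with BML-210. The ratio of Mmp9 to Timp2 was 0.188 and 0.170 untreated and 0.387 and 0.377 with BML-210, and that of Mmp14 to Timp2 was 0.222 and 0.218 against 0.190 and 0.193. With 2 libraries per group an exact permutation test cannot go below a two-sided p of 0.333, and the ratios are given as a description, with no test. They are ratios of RNA and not of protein or activity.

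**Figure D2:**
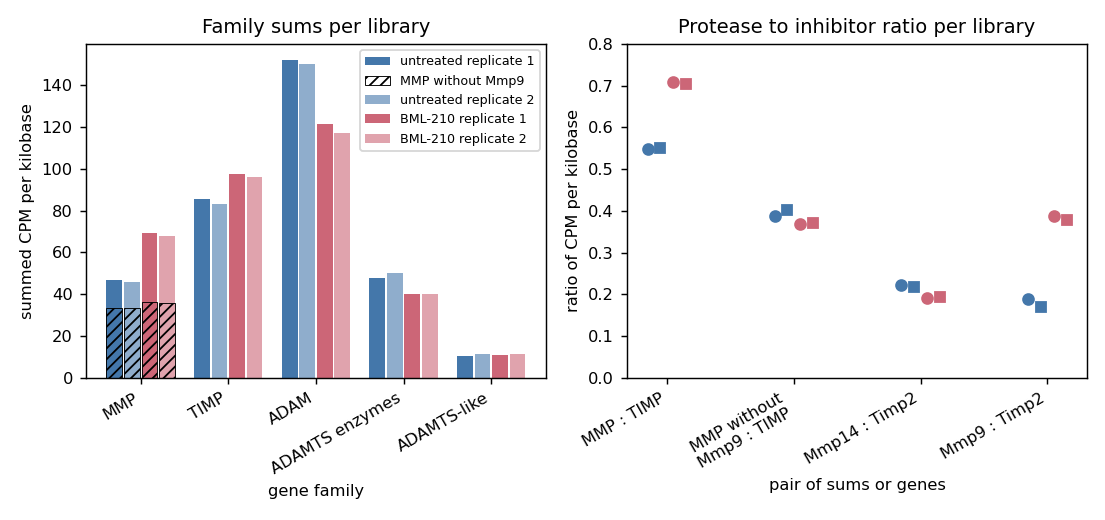
Left, summed CPM per kilobase of each family in each library, with the hatched part of the MMP bars showing the sum without Mmp9; right, ratios of protease to inhibitor levels per library, blue for untreated and red for BML-210 (circle, replicate 1; square, replicate 2). The MMP to TIMP ratio is higher with BML-210 (0.709 and 0.705), whereas without Mmp9 it is lower (0.369 and 0.371 against 0.389 and 0.403).

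All 5 tested ADAM genes with a known protease activity in somatic tissues fell. Over the whole family 5 of 9 tested ADAM genes were called, or 55.6%, beside 46.4% of all tested genes. The 4 tested germ-line ADAM genes, with 0 called, had at most 55 counts in a library. Adam8 (ENSMUSG00000025473.16, chromosome 7, 139978932 to 139992562), a sheddase known from leukocytes and from invasive tumour cells, had 198 and 156 counts untreated and 15 and 15 with BML-210. In CPM these were 12.1 and 11.4 against 1.14 and 1.07, a 10.6-fold fall with both BML-210 libraries far below (log2 fold change -3.40 ± 0.23 SE, n = 2 per group, edgeR adjusted p = 2.00e-19). Under the 13 alternatives the log2 fold change stayed between -3.45 and -3.36. Its exons share 46 bases with Gm16201 on the opposite strand, which had 30 counts in all against 384 for Adam8. Gm16201 fell too (log2 fold change -2.48, edgeR adjusted p = 0.0035).

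Because Adam8 is also a leukocyte gene, markers of leukocytes are given beside it. Over all tested genes 22.9% were higher and 23.5% lower, and the marker counts stand beside those shares. Of 18 macrophage markers 6 were tested, 0 higher and 2 lower: Cd68 (means of 162 and 31.1 CPM) and Adgre1 (1.48 and 0.181 CPM). Their summed level was 172 and 175 CPM untreated and 39.7 and 37.4 CPM with BML-210, and without Cd68 it was 12.4 and 9.54 against 7.57 and 7.35 CPM. The pan-leukocyte gene Ptprc had 16 and 6 counts untreated and 10 and 10 with BML-210, C1qa had at most 2 counts and C1qc none. Of 12 neutrophil markers 2 were tested, 1 higher and 0 lower; their sum was 708 and 705 CPM untreated and 768 and 768 CPM with BML-210, nearly all of it Lcn2, and without that gene it was 1.58 and 2.48 CPM untreated and 1.36 and 0.928 with BML-210, with S100a9, Ly6g, Retnlg and Camp at 0. Whether cells of another kind had a part in the fall of Adam8 was not tested. In such bulk RNA, fewer cells of a type and less RNA per cell cannot be told apart.

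The 4 abundant ADAM genes fell by smaller steps and supplied 96.1% to 97.2% of the ADAM sum per kilobase. Adam9 (ENSMUSG00000031555.15, chromosome 8, 24949611 to 25016927), a widely expressed sheddase, went from 234 and 235 CPM to 178 and 167 CPM (log2 fold change -0.44 ± 0.04 SE, edgeR adjusted p = 2.43e-15). Adam15 (ENSMUSG00000028041.17, chromosome 3, 89338542 to 89349996), which carries an integrin-binding disintegrin domain, went from 118 and 124 CPM to 87.4 and 88.2 CPM (-0.46 ± 0.05 SE). In both genes the libraries of the groups were well apart.

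Adam10 (ENSMUSG00000054693.14, chromosome 9, 70678997 to 70780229), the enzyme that cuts Notch receptors after they bind a ligand and that sheds cadherins, had 194 and 186 CPM untreated and 164 and 156 CPM with BML-210. It fell by 0.25 ± 0.04 (SE) on the log2 scale (edgeR adjusted p = 4.02e-07). Adam17 (ENSMUSG00000052593.16, chromosome 12, 21323509 to 21373632), the converting enzyme of TNF and of most EGF receptor ligands, had 219 and 208 CPM against 195 and 195 CPM. Its fall of 0.13 ± 0.04 (SE) on the log2 scale was the smallest in this group (edgeR adjusted p = 0.00308). It did not pass without untreated replicate 1 (adjusted p = 0.0805) or in DESeq2 (0.0700), in a range of 0.000239 to 0.0805. Exons of Adam17 share 311 bases with Iah1 on the opposite strand, a gene with a log2 fold change of 0.46.

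Adam12, Adam19, Adam28 and Adam33, the other catalytic ADAMs of somatic tissues, had at most 7 counts in any library, and the non-catalytic Adam11, Adam22 and Adam23 at most 8. Of 21 ADAM genes known mainly from the germ line, 4 were tested and none passed edgeR's test (0 also in DESeq2 and 0 at an unadjusted p under 0.05). Adam32 lies 806 bases beyond the 3′ end of Adam9 on the same strand. It had 2.43 and 3.205 CPM untreated and 1.74 and 2.21 CPM with BML-210 (log2 fold change -0.49 ± 0.30 SE, edgeR adjusted p = 0.171), beside -0.44 for Adam9. Adam3, in the same cluster, had 0.791 and 1.31 CPM against 0.530 and 0.642 CPM. Adam4 and Adam21, neighbours on chromosome 12, had log2 fold changes of 0.19 and 0.24 that did not pass.

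ADAMTS enzymes were lower in 8 of 10 tested cases and higher in 0, beside 23.5% and 22.9% of all tested genes. Their median log2 fold change was -0.43, and that of all tested genes was 0.00. In DESeq2 only Adamts4, Adamts6 and Adamts20 of these 10 enzymes passed, beside 4335 of all 14455 tested genes, 2130 of them lower. The enzymes that cut versican and other hyalectans, the large proteoglycans of the matrix, fell in 4 of 4 tested cases. Of these only Adamts4 and Adamts20 passed in DESeq2. Adamts4 (aggrecanase 1; ENSMUSG00000006403.13, chromosome 1, 171250421 to 171260637) went from 50.7 and 51.5 CPM to 35.7 and 36.0 CPM (log2 fold change -0.51 ± 0.07 SE, edgeR adjusted p = 5.29e-09). Adamts20 (ENSMUSG00000022449.14, chromosome 15, 94270163 to 94465418), known for its part in melanoblast survival, went from 13.4 and 14.1 CPM to 6.81 and 7.35 CPM (-0.95 ± 0.14 SE). Both genes had groups clearly apart. Adamts1 fell from 25.3 and 25.5 CPM to 21.3 and 19.6 CPM (-0.31 ± 0.10 SE, edgeR adjusted p = 0.00544), a call that ended without BML-210 replicate 2 (0.0900) and in DESeq2 (0.0919, with a range of 0.00232 to 0.0919). Adamts8 rested on few counts, 20 and 15 untreated and 9 and 4 with BML-210. Its call (-1.26 ± 0.51 SE, edgeR adjusted p = 0.0349) ended without untreated replicate 1 (0.225), without untreated replicate 2 (0.123), without BML-210 replicate 2 (0.372, at a log2 fold change of -0.76), with no filter (0.0804) and in DESeq2 (0.242), with a range of 0.0265 to 0.372.

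Adamts6 (ENSMUSG00000046169.10, chromosome 13, 104287835 to 104496695) and Adamts10, close relatives that act on fibrillin-rich microfibrils, fell together. Adamts6 went from 10.9 and 10.7 CPM to 5.07 and 4.64 CPM, a 2.23-fold fall (log2 fold change -1.15 ± 0.17 SE, edgeR adjusted p = 3.61e-08). Adamts10 went from 24.3 and 22.9 CPM to 19.0 and 18.1 CPM (-0.35 ± 0.10 SE, edgeR adjusted p = 0.00299), though not past the threshold in DESeq2 (0.0673, with a range of 0.00128 to 0.0673). Of the enzymes that cut cartilage oligomeric matrix protein, Adamts12 fell from 5.48 and 6.77 CPM to 3.71 and 3.92 CPM (-0.67 ± 0.21 SE, edgeR adjusted p = 0.00591). That call ended without untreated replicate 2 (adjusted p = 0.0833) and in DESeq2 (0.0878, with a range of 0.00254 to 0.0878). Adamts7 had 105 and 118 CPM against 100.3 and 104 CPM, a small fall of 0.12 ± 0.05 (SE) on the log2 scale (edgeR adjusted p = 0.0392). That call ended without untreated replicate 2 (0.619, at a log2 fold change of -0.04), without BML-210 replicate 1 (0.209), with library size only (0.0763), with no filter (0.0707), in DESeq2 (0.253) and in limma-voom (0.0507), and the range was 0.000970 to 0.619.

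The procollagen N-propeptidases, which trim the ends of collagen precursors, had no member that passed edgeR's test (0 of 2 tested, 0 also in DESeq2 and 0 at an unadjusted p under 0.05). Adamts14 was at 42.4 and 42.6 CPM untreated and 39.9 and 38.2 CPM with BML-210 (log2 fold change -0.12 ± 0.07 SE), and Adamts3 at 3.33 to 4.35 CPM. ADAMTS-like proteins lack the protease domain, and their genes went apart. Adamtsl3 (ENSMUSG00000070469.12, chromosome 7, 82335694 to 82614450) rose from 19.9 and 21.2 CPM to 30.4 and 27.3 CPM (0.49 ± 0.09 SE, edgeR adjusted p = 1.29e-05). Adamtsl4 (ENSMUSG00000015850.11, chromosome 3, 95676201 to 95687917), which binds fibrillin 1, fell from 11.8 and 13.1 CPM to 6.74 and 6.49 CPM (-0.91 ± 0.15 SE, edgeR adjusted p = 8.99e-07). Adamtsl5 did not pass (24.5 and 25.1 CPM against 25.7 and 30.7 CPM, edgeR adjusted p = 0.0874), but did without BML-210 replicate 1 (0.0183, with a range of 0.0183 to 0.769).

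**Figure D3:**
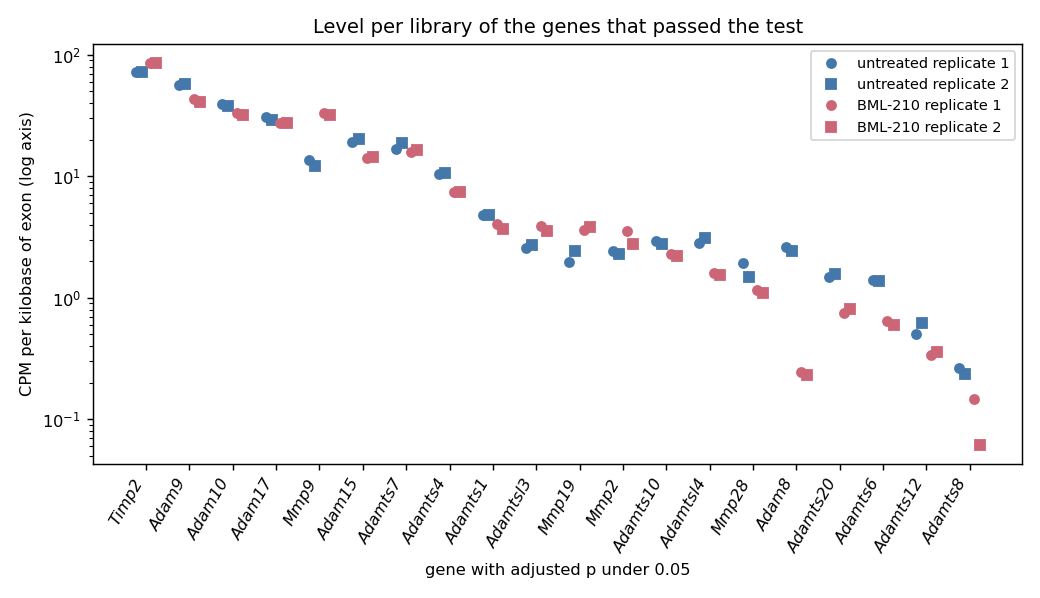
Level of the 20 members that passed the test, as CPM per kilobase of exon on a log axis, in each of the 4 libraries (blue, untreated; red, BML-210; circle, replicate 1; square, replicate 2), ordered by mean level. Timp2 has the highest level, and Adam8 shows the widest gap between the groups.

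Per kilobase, the order of levels in the untreated libraries began with Timp2 (mean 72.4 CPM per kilobase), Adam9 (57.0), Adam10 (38.7), Adam17 (29.8), Adam15 (19.7), Adamts7 (17.7), Mmp14 (15.9) and Mmp9 (12.95). Each of these 8 was separate from the next in both replicates, except Mmp9, which overlapped with Timp1. In the BML-210 libraries Mmp9 had rank 3 (32.7), overlapping with Adam10 (32.6), behind Timp2 (85.5) and Adam9 (41.9). Adam8, at rank 18 of the tested members in the untreated libraries, was at a level below that of Reck with BML-210 (0.238 against 0.332 CPM per kilobase).

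Partners of these enzymes were read from lists of genes, whose counts stand against 46.4% of all tested genes called (22.9% higher and 23.5% lower). Of 16 tested partners of ADAM10 and ADAM17, 3 were higher and 6 lower, 56.2% called (median log2 fold change -0.13). Rhbdf2, which encodes iRhom2 and carries ADAM17 to the surface, fell from a mean of 165 to 137 CPM (log2 fold change -0.27), while its paralog Rhbdf1 (0.09) did not pass. The tetraspanin genes Tspan17 (-0.89) and Tspan33 (-1.05), whose products carry ADAM10, fell, as did Pdia6 (-0.45) and Itgb1 (-0.14). Ncstn (0.15), which encodes a part of the gamma-secretase that cuts after ADAM10, rose. Furin, the convertase that removes the prodomain of many ADAMs and membrane-type MMPs, fell from 168 to 133 CPM (log2 fold change -0.34).

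Of the substrates that ADAM10 and ADAM17 release, 9 of 26 tested were higher and 7 lower (median 0.07), beside 22.9% and 23.5% of all tested genes. Tnf rose from a mean of 12.3 to 36.9 CPM (log2 fold change 1.59), Icam1 from 78.2 to 126 CPM (0.70), and Il6ra (0.62) and the EGF receptor ligand gene Ereg (0.46) rose too. The ligand genes Hbegf (-0.76) and Areg (-0.69) fell, and so did the adhesion gene L1cam (-0.95) and the Notch ligand gene Jag1 (-0.69). Cd44 (0.00) and Notch2 (0.00) did not pass, and their groups overlapped.

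Other pericellular proteases and their activators were lower in 8 of 16 tested cases and higher in 3 (median -0.21), beside 23.5% and 22.9% of all tested genes. The plasminogen activator genes Plau, from 74.5 to 32.7 CPM (log2 fold change -1.19), and Plat (-0.76) fell, together with the receptor gene Plaur (-0.26). The aminopeptidase gene Anpep (-0.88) fell, and Pcsk7 (0.35) and Dpp4 (0.62) rose. In the list of MMP inhibitors, inducers and clearance receptors, 4 of 11 were higher and 4 lower (median 0.02). Bsg, whose product basigin induces MMPs, fell from 145 to 102 CPM (-0.50), Lrp2 (-0.58) and Cd9 (-0.54) fell, and Tnc (0.79) and Pcolce (0.66) rose. The endocytic receptor gene Lrp1, which clears MMP9, was at 813 and 825 CPM (0.02).

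Of 14 tested matrix substrates of ADAMTS enzymes and partners of ADAMTS-like proteins, 6 were higher and 2 lower (median 0.29). Over all tested genes the shares were 22.9% higher and 23.5% lower. Vcan, the versican gene and a main substrate of the hyalectanases above, rose from a mean of 44.8 to 79.1 CPM (log2 fold change 0.82). Efemp2 (0.55), Fbln2 (0.28) and Ltbp4 (0.31) rose as well, and Nid1 (-0.44) and Ltbp3 (-0.15) fell. Among transcription factors known to bind MMP promoters, 12 of 25 tested were higher and 4 lower (median 0.09), beside those same shares. Ets2 (0.67), Nfkb1 (0.86), the AP-1 member Fosl1 (0.47) and Cebpb (0.50) rose, while the AP-1 members Jun (-0.31), Fos (-0.71) and Fosb (-0.57) and Stat3 (-0.16) fell. AP-1 members thus went both ways.

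**Figure D4:**
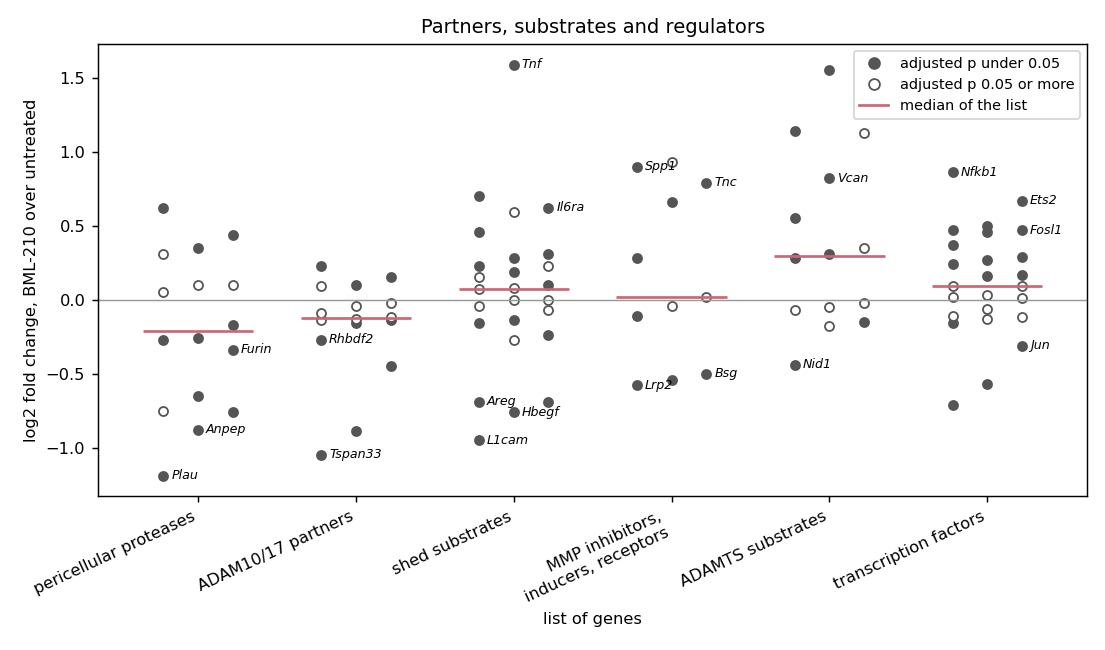
Log2 fold change (BML-210 over untreated) of the tested genes of 6 lists of partners, substrates and regulators; filled points have an edgeR adjusted p under 0.05 and the red line is the median of the list. Tnf (1.59) lies highest among the shed substrates and Plau (-1.19) lowest among the pericellular proteases.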

How the data were processed

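The authors deposited whole read counts per gene, not normalised; per the file headers, each row also carries exon positions and a summed exon length. The submitters' processing notes name STAR 2.5, featureCounts from Subread 1.5.1, edgeR 3.20.8 and mm10. How strand, multi-mapping and overlapping genes were treated is not stated there. Libraries were prepared with a KAPA RNA HyperPrep kit, per the labels' protocols.

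The test was edgeR 4.0.16 (R 4.3.3): filterByExpr (14455 of 56350 genes kept), TMM scaling, robust quasi-likelihood fit on the group alone (2 residual degrees of freedom), Benjamini-Hochberg over all tested genes, threshold 0.05. SE is the size of the log2 fold change over the square root of F, an approximation. CPM use the TMM-scaled library size, in which 3 counts are 0.183 to 0.227 CPM (counting error only). Alternatives included DESeq2 1.42.0 and limma-voom (limma 3.58.1). Every tested member is named, and of each list up to 4 genes with the smallest adjusted p, up to 2 called against the majority and direct partners of the members described; Dpp4, Plaur, Bsg, Ltbp4, Fos and Fosb fall outside that rule and were named after their values were seen. Some genes that the rule would name are not reported here. Members and lists were chosen with earlier results of these data known.

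Replicates differed beyond sampling noise (chi-square over degrees of freedom 2.70 and 1.76) and were fitted as separate libraries. This spread does not show that they came from separate cultures. In simulated data (14181 genes), recovery was 66.7% of 99 genes set to 0.5 on the log2 scale and 74.5% of 98 set to 1, with 6 false of 145 calls. Far more genes, 6714, were called in the real comparison, so these rates describe the simulated setting only. Of the tested members 10 have an exon overlapping another gene.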

Additional observations from a re-analysis of the deposited data

How the results depend on the processing

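Of the 32 tested members, 18 kept direction and side of the threshold under every alternative that gave them a value: RLE, upper-quartile or no scaling, no filter, a minimum mean CPM of 1, the replicate block, each library left out, DESeq2, limma-voom, and genes over 1% of counts left out. DESeq2 called fewer: 4335 genes in place of 6714, and 8 members lower in place of 15, with 2 MMP and 5 ADAMTS genes in place of 4 and 10; the cause was not tested. Without a filter 2 TIMP or RECK genes were called, Timp4 (adjusted p = 0.0025) beside Timp2. With each library left out in turn, 5618 to 5869 genes, 12 to 15 members lower, 4 to 5 higher and 1 to 2 TIMP or RECK genes were called. Directions reversed among members that did not pass, with ranges over the libraries left out of -0.14 to 0.10 for Timp1, -0.22 to 1.08 for Adam21, -0.29 to 0.13 for Reck, -0.04 to 0.32 for Mmp3 and -0.01 to 0.38 for Adamts3. Replicate numbers are shared by the groups, and the labels do not say whether they pair the libraries. Deviations of same-numbered libraries correlated at 0.02 over 14455 genes, so no shared shift was seen. Libraries can be paired without such a shift, so this value cannot decide the question. With the replicate block 6847 genes and the same 20 members were called. Members with under about 20 counts are limited by depth.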

Other observations

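Some members with too few counts to be tested had libraries of the groups apart. The counts are given for untreated replicates 1 and 2 and then for BML-210 replicates 1 and 2. Timp4, a TIMP of heart and fat tissue, had 15, 8, 1 and 1 counts, and it was the untested member that passed when no filter on low counts was used (edgeR adjusted p = 0.0025). Its exons share 90 bases with Syn2 on the opposite strand, which had 19 counts in all. Adamts13, the protease of von Willebrand factor, had 8, 8, 0 and 3 counts (adjusted p = 0.0842 in that fit), and its substrate gene Vwf was at 1.92 and 1.87 CPM. Adam23, a non-catalytic ADAM of the nervous system, had 1, 5, 0 and 0 counts, and Adam7, known from the epididymis, had 0, 0, 2 and 4. These counts were picked out after they were seen.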
